A study of Caenorhabditis elegans with 25 samples.

Results

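The RNA of sperm made by mes-3 mutant males was compared with that of sperm from him-8 males. The comparison covers all 6 sperm libraries among the 25 RNA libraries of a study of Caenorhabditis elegans germlines, 3 from mes-3 sperm and 3 from him-8 sperm, and they were taken by their labels. The mes-3 sperm came from males homozygous for mes-3(bn35), of strain SS818, both of whose parents carried 1 mutant copy over the balancer chromosome hT2-GFP. These males inherited MES-3 from their mothers and made none of their own. The him-8 sperm came from males homozygous for him-8(e1489), of strain CB1489, a mutation that causes X-chromosome loss at meiosis in hermaphrodites and is used because it yields many males. The effect of mes-3 therefore cannot be told apart from any other difference between the strains. All worms were cultured at 20 °C. Adult males were cut in the middle, and the released sperm, mostly spermatids, were collected for extraction of total RNA, from which ribosomal RNA was depleted. The 6 libraries carry the tag of 1 sequencing run, and the study's methods call the 3 libraries of a group biological replicates. Neither they nor the labels say whether these came from separate cultures, so p-values measure only the spread between these samples.

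MES-3 acts in a complex with MES-2 and MES-6, the worm counterpart of Polycomb Repressive Complex 2, which places the repressive mark H3K27me3 on histone H3. In the worm germline this mark is known for covering the X chromosome and genes kept silent there. Spermatids stop transcribing when their chromatin is compacted, so the RNA they carry was made earlier, during meiosis. Abundant messenger RNAs among it encode the major sperm proteins, which form the fibers that move the amoeboid sperm. Others encode kinases, phosphatases and chromatin proteins made only in spermatogenesis. Ribosomes are left behind in the residual body when spermatids bud off.

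Gene counts per library were 1561329 to 2489066 in mes-3 sperm and 1965802 to 3084442 in him-8 sperm. Levels are given as CPM, read counts divided by library size after scaling by the TMM factors of edgeR, which were 1.08 to 1.13 in mes-3 sperm and 0.840 to 0.991 in him-8 sperm. Reads outside genes were 5.82% to 9.19% of counted reads in mes-3 sperm and 3.55% to 5.27% in him-8 sperm. him-8 sperm 1 stood furthest from the other libraries in a multidimensional scaling plot. The gene mes-3 had 36.1, 27.7 and 17.7 CPM in mes-3 sperm, against 39.1, 8.52 and 14.2 CPM in him-8 sperm. The groups overlapped (adjusted p = 0.751), so its level does not check the labels. Among 12 muscle markers tested none was called, and 2 had an unadjusted p under 0.05, both lower. Log2 fold changes were below 0 for 10 and above 0 for 2, with a median of -0.16 whose sign turned under 3 alternatives. Without him-8 sperm 3, 2 were called lower, and without him-8 sperm 2, 1 was. Their summed level was 2903 to 5855 CPM in mes-3 sperm and 3483 to 8850 CPM in him-8 sperm, which overlapped. Intestine markers summed to 807 to 948 CPM in mes-3 sperm and 423 to 803 CPM in him-8 sperm without overlap. All 13 had log2 fold changes above 0, with a median of 0.58, and 1 of them, the ferritin gene ftn-1, was called. Neuron markers summed to 122 to 145 CPM in mes-3 sperm and 97.6 to 423 CPM in him-8 sperm, the highest value being that of him-8 sperm 1. The part of these cells in the results below was not tested.

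In mes-3 sperm 271 genes were higher and 594 were lower than in him-8 sperm, of 8424 tested with the quasi-likelihood test of edgeR at a Benjamini-Hochberg adjusted p under 0.05, which is called here. This is a background of 3.22% higher and 7.05% lower. The levels of the groups did not overlap for 2586 genes, or 30.7% of those tested. The lower side held many genes of spermatogenesis, and the higher side held many ribosomal proteins. The higher side also held 10 of 26 nucleolar proteins, a list chosen after the called names were known. The other family lists were chosen with earlier results of these data known, so their counts describe that choice too. Families are named by their proteins, but only RNA was measured. Of the genes higher in oogenic than in male germlines, 4.54% were called higher, near the background. At an unadjusted p under 0.05 there were 1972 genes over both directions. The split between higher and lower depends on the scaling. With total counts in place of TMM factors, 463 genes were higher and 270 lower, so that the higher ones made up 63.2% of calls instead of 31.3%, and the median log2 fold change of all genes moved by 0.27. The 6 fits that each left out 1 library called 80 to 304 genes higher and 200 to 563 lower. The counts higher and lower fell to 137 and 389 without mes-3 sperm 1, 80 and 200 without mes-3 sperm 2, 103 and 306 without mes-3 sperm 3, and 114 and 269 without him-8 sperm 2. In all 6 of these fits 53 of the 271 and 189 of the 594 kept their call. In such bulk samples, fewer cells of a kind and less RNA per cell cannot be told apart.

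**Figure D1:**
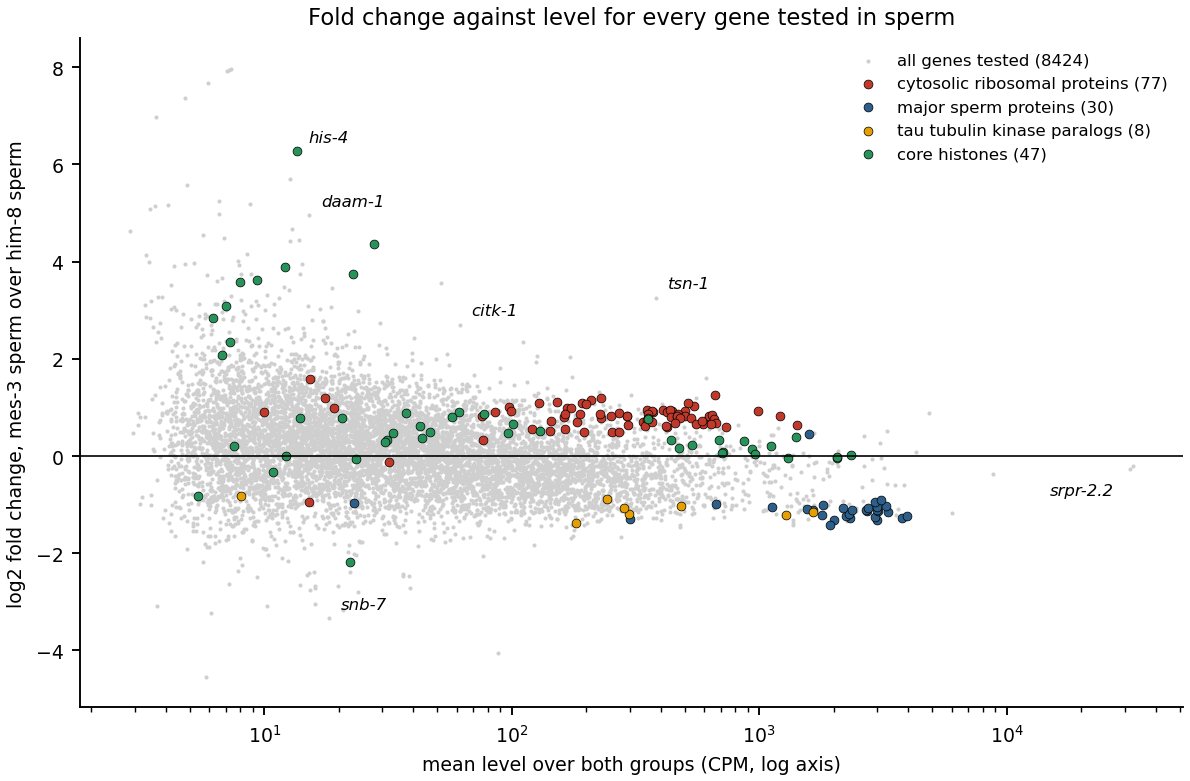
Each point is 1 of the 8424 genes tested, placed by its mean level over both groups (CPM, log axis) and by its log2 fold change in mes-3 sperm over him-8 sperm. Nearly all major sperm proteins lie together near -1.11 at high CPM, the ribosomal proteins near 0.82, and tsn-1 and daam-1 far above their neighbours.

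Genes were grouped by their use in N2 (wild-type) germlines, from libraries that take no part in the sperm comparison. Of 1334 spermatogenesis-specific genes tested, with over 15 RPKM in N2 male germlines and under 1 RPKM in N2 oogenic germlines, 420 fell and 5 rose in mes-3 sperm. Their median log2 fold change was -0.67, against 0.06 over all genes tested. Their summed level was 264087 ± 19247 CPM in mes-3 sperm and 451069 ± 72598 CPM in him-8 sperm (SD, n = 3 each), with no overlap. Of 1167 genes higher in oogenic than in male N2 germlines, 53 rose (4.54%) and none fell, with a median of 0.56. DESeq2 gave 85 and 1. Of 2401 genes used at similar levels in both sexes, 4.96% rose and 10 genes fell, with a median of 0.21. The shares of oogenic and sex-independent genes that rose were both near the 3.22% over all genes tested. With total counts, 230 spermatogenesis-specific genes fell and 12 rose, with a median of -0.39, 103 oogenic genes rose, with a median of 0.83, and 196 sex-independent genes rose and 2 fell, with a median of 0.49. The spermatogenesis-specific genes that fell numbered 171 without mes-3 sperm 2, 251 without mes-3 sperm 3 and 218 without him-8 sperm 2. The oogenic genes that rose numbered 16, 18 and 16 without mes-3 sperm 1, 2 and 3 and 21 without him-8 sperm 2, and the sex-independent ones 74, 41, 47 and 51 in the same order.

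The major sperm proteins (MSPs), the cytoskeletal proteins that drive sperm crawling and also signal to oocytes, fell as a family. Of 30 members tested, 28 fell and none rose, with a median log2 fold change of -1.11 and a range of -1.41 to 0.45. Together they had 47573, 36989 and 47779 CPM in mes-3 sperm, against 93299, 113533 and 77330 CPM in him-8 sperm. Every mes-3 library lay below every him-8 library, and the ratio of the means was 0.466. The highest MSP by transcript length, msp-77, had 2606, 1920 and 2542 CPM in mes-3 sperm and 5526, 6697 and 4508 CPM in him-8 sperm, with no overlap (log2 fold change -1.24 ± 0.19 SE, adjusted p = 0.00343). The gene with the largest change was msp-38, at 1096, 930 and 1142 CPM in mes-3 sperm and 2974, 3270 and 2186 CPM in him-8 sperm (log2 fold change -1.41). Also called were msp-36 at -1.27, msp-79 at -1.25, msp-63 at -1.3 and msp-81, msp-10, msp-40, msp-51 and msp-31. The 2 not called were msp-74 at -0.97 and msp-152 at 0.45. Between 24 and 28 members fell with any 1 library left out, and 28 fell with total counts, with 1 higher. MSP genes are near-identical, so reads may be split among copies or left uncounted, which limits single members and also the family's sum.

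The small MSP-domain proteins of the msd and ssp families, of which MSD proteins stabilize MSP fibers, fell alongside. Of 15 tested, 13 fell, with a median of -1.01. Their sums were 10348, 8460 and 11195 CPM in mes-3 sperm and 16851, 25863 and 18342 CPM in him-8 sperm. The groups did not overlap. The largest change was that of ssp-10, with 1243, 993 and 1601 CPM in mes-3 sperm and 2926, 4079 and 2714 CPM in him-8 sperm (log2 fold change -1.34, adjusted p = 0.00347). The number that fell was 6 without mes-3 sperm 2, 7 without him-8 sperm 2 and 8 with total counts. Of the 4 ssq genes, a sperm-specific family that was listed after the names of the called genes were known, all 4 fell, with log2 fold changes of -1.1 to -1.16. ssq-2 had 2265, 2126 and 2580 CPM in mes-3 sperm, against 5747, 5397 and 3783 CPM in him-8 sperm.

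The nematode-specific peptide families (nsp) encode short peptides, several of them made in spermatogenesis. Only 17 of 61 members had counts enough to be tested, 33 having none in any library. Of the 17, 13 fell and none rose, with a median of -1.15. The sum was 2297, 1912 and 2097 CPM in mes-3 sperm and 3726, 7346 and 4288 CPM in him-8 sperm, him-8 sperm 2 being the highest. nspa-8 had 148, 112 and 136 CPM in mes-3 sperm, against 279, 583 and 406 CPM in him-8 sperm (log2 fold change -1.67, adjusted p = 0.00343). nspd-10 had 416, 341 and 417 CPM in mes-3 sperm and 715, 1018 and 646 CPM in him-8 sperm (log2 fold change -1.02). The members nspa-7 and nspa-1 each had 2 near-identical gene copies in the files, at log2 fold changes of -1.69 and -1.64 for nspa-7 and of -1.45 and -1.42 for nspa-1. The number of members that fell was 5 without mes-3 sperm 2, 7 without mes-3 sperm 3, 6 without him-8 sperm 2 and 7 with total counts. nsph-3.2, a peptide gene named as one of those with the smallest p, had 3567, 3579 and 3998 CPM in mes-3 sperm and 8477, 9873 and 6682 CPM in him-8 sperm (log2 fold change -1.17, adjusted p = 0.00311).

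Signalling enzymes of sperm followed the same direction. Of 8 tested paralogs of tau tubulin kinase (ttbk), a kinase family greatly expanded in worm spermatogenesis, 7 fell, with a median of -1.11. ttbk-8.1 had 782, 736 and 785 CPM in mes-3 sperm, against 1805, 2101 and 1463 CPM in him-8 sperm (log2 fold change -1.22, adjusted p = 0.00311), and ttbk-8.2 had 1057, 1000 and 1029 CPM against 2408, 2642 and 1776 CPM. The mes-3 libraries agreed closely with each other, and the him-8 libraries were all above them. The largest change among them was that of ttbk-3, at -1.38, and 6 or 7 members fell with any 1 library left out. Of the 4 catalytic subunits of protein phosphatase 1, the sperm-specific pair gsp-3 and gsp-4 fell, by -0.98 and -0.91. gsp-3 had 1586, 1387 and 1707 CPM in mes-3 sperm and 3169, 3440 and 2607 CPM in him-8 sperm. gsp-1 and gsp-2, which are used in all tissues, had log2 fold changes of 0.01 and 0.45 and were not called.

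**Figure D2:**
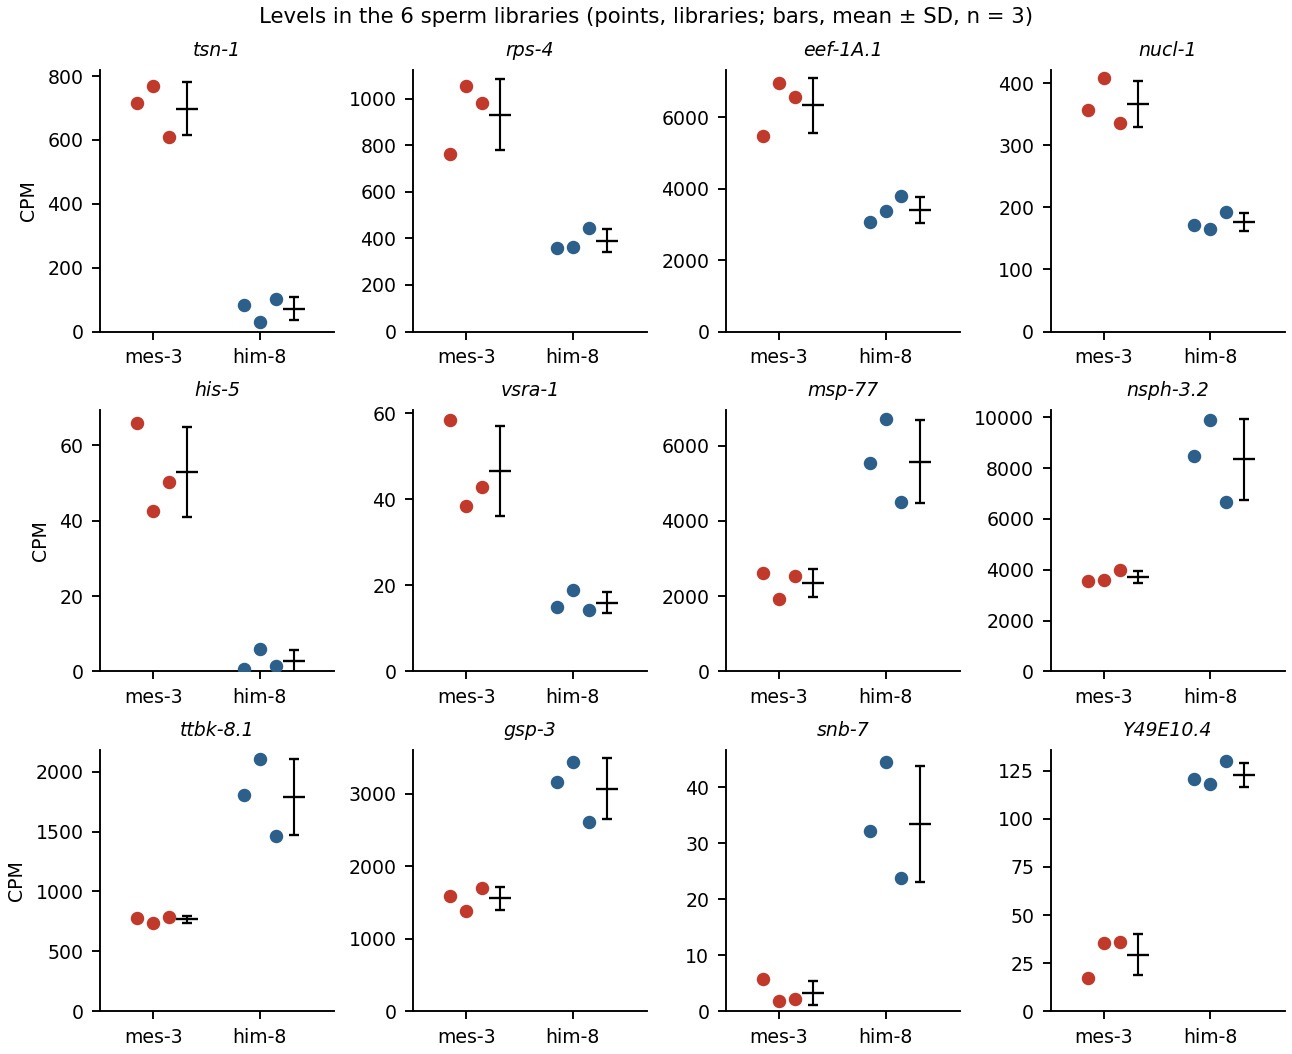
Levels of 12 genes (CPM, axes from 0) in the 3 mes-3 sperm libraries (left) and 3 him-8 sperm libraries (right) of each panel, with bars for the mean ± SD. In every panel the groups are separate: tsn-1, rps-4, eef-1A.1, nucl-1, his-5 and vsra-1 are higher in mes-3 sperm, and the others are lower.

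Transcripts that encode proteins of sperm chromatin also fell. All 6 tested, namely the sperm basic proteins spch-1, spch-2 and spch-3, the PDZ-domain proteins smz-1 and smz-2 and the H2A variant htas-1, were called lower, with a median of -0.94. smz-1 had 959, 865 and 964 CPM in mes-3 sperm, against 2084, 2110 and 1830 CPM in him-8 sperm (log2 fold change -1.11 ± 0.15 SE, adjusted p = 0.00311). spch-1 had 970, 934 and 1095 CPM in mes-3 sperm and 2424, 2224 and 1471 CPM in him-8 sperm (log2 fold change -1.03). htas-1 changed least firmly, with 247, 195 and 259 CPM in mes-3 sperm and 328, 625 and 317 CPM in him-8 sperm (adjusted p = 0.0473), him-8 sperm 2 being the highest. Its call was lost without him-8 sperm 2 and without any 1 mes-3 library. With total counts 4 members fell, and without mes-3 sperm 2 only spch-1, smz-1 and smz-2 of the 6.

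The spe and fer genes, found through mutants with defective spermatogenesis or infertile sperm, were less uniform. Of 28 tested, 7 fell and none rose, with a median of -0.53. spe-11, which encodes a protein that sperm deliver to the egg, had 59.3, 47.8 and 42.5 CPM in mes-3 sperm and 117, 130 and 87.1 CPM in him-8 sperm (log2 fold change -1.15, adjusted p = 0.0195). spe-54 fell by 1.1 on the log2 scale, spe-18 by 0.97, spe-15, a myosin, by 0.92, spe-26, a kelch-repeat protein, by 0.92, spe-8, a tyrosine kinase, by 0.77 and fer-1, needed for membranous organelles to fuse, by 0.55. fer-1 was near the threshold, at an adjusted p of 0.0494. Without mes-3 sperm 2 only spe-26 and spe-15 kept their call, without him-8 sperm 2 there were 4, and with total counts 4. Of 11 genes needed to activate sperm, spe-8 alone was called, and it was lost with total counts and in 5 of the 6 fits with a library left out, all but that without him-8 sperm 1. Of 6 surface proteins needed at fertilization none was called, with a median of -0.28 whose sign turned under 2 of the alternatives. edgeR and DESeq2 both gave 0 calls there and none had an unadjusted p under 0.05. Among these spe-9, an EGF-repeat protein, had 44.1, 45.4 and 27.4 CPM in mes-3 sperm and 60.4, 47.5 and 47.5 CPM in him-8 sperm.

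Genes of small RNA pathways gave few calls. The Argonautes alg-3 and alg-4, which serve spermatogenesis-specific small RNAs, fell by 0.82 and 0.80 on the log2 scale. alg-3 had 1114, 1148 and 1098 CPM in mes-3 sperm and 1914, 2346 and 1658 CPM in him-8 sperm (adjusted p = 0.00869). wago-10 fell by 0.61, and its call was lost in 5 of the 6 fits with a library left out and with total counts. Higher in mes-3 sperm were vsra-1, an Argonaute at 58.4, 38.3 and 42.9 CPM in mes-3 sperm and 14.9, 18.9 and 14.2 CPM in him-8 sperm (log2 fold change 1.54, adjusted p = 0.0311), and ppw-2 at 1.24. Both lost the call without him-8 sperm 2, him-8 sperm 3, mes-3 sperm 2 or mes-3 sperm 3, and vsra-1 also without mes-3 sperm 1. csr-1 at -0.16, wago-1 at 0.03 and prg-1, the Piwi protein, at 0.39 were not called. Over 29 Argonautes and cofactors tested, 2 rose and 3 fell, with a median of 0.03 whose sign turned under 6 alternatives. The shares of 6.90% higher and 10.3% lower stand beside 3.22% and 7.05% over all genes tested.

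Energy metabolism and protein turnover moved less. Of 18 glycolytic enzymes 5 fell, with a median of -0.38: ipgm-1 by 0.77, aldo-2 by 0.67, pfk-1.2, a sperm-specific phosphofructokinase, by 0.67, pyk-1 by 0.64 and enol-1 by 0.62. Under total counts none of them fell, and none did without mes-3 sperm 1, 2 or 3 or him-8 sperm 2, while 1 did without him-8 sperm 1. Of 44 nuclear genes of oxidative phosphorylation, cyc-2.2, a cytochrome c, and cox-4 fell. This share of 4.55% is below the 7.05% called lower over all genes tested. The median of -0.25 became 0.02 with total counts, when neither gene was called. Without mes-3 sperm 2 or 3 or him-8 sperm 2 neither was, and without mes-3 sperm 1 or him-8 sperm 1 only cyc-2.2. Of 33 proteasome subunits 6 fell, with a median of -0.42. rpn-1 had 815, 876 and 737 CPM in mes-3 sperm, against 1420, 1442 and 1170 CPM in him-8 sperm (log2 fold change -0.73, adjusted p = 0.0125). The number that fell was 4 without mes-3 sperm 1, 0 without mes-3 sperm 2, 2 without mes-3 sperm 3, 1 without him-8 sperm 2 and 0 with total counts. In fatty acid oxidation, 4 of 10 acyl-CoA dehydrogenases fell, a family listed after the called names were known. acdh-8 had 669, 672 and 647 CPM in mes-3 sperm and 1300, 1646 and 1339 CPM in him-8 sperm (log2 fold change -1.11, adjusted p = 0.00311), and acdh-5 fell by 1.3. Both kept their call with any 1 library left out, and 2 members did with total counts or without mes-3 sperm 1, mes-3 sperm 2 or him-8 sperm 2.

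Among structural genes, 3 of 9 tubulins fell: the beta-tubulin ben-1 by 1.03, tbb-1 by 0.77 and tba-2, an alpha-tubulin, by 0.65. ben-1 had 535, 408 and 493 CPM in mes-3 sperm and 884, 1211 and 840 CPM in him-8 sperm. The median of the family was -0.17 and turned to 0.10 with total counts. The number that fell was 1 without mes-3 sperm 1 or 2, and 2 with total counts, without mes-3 sperm 3 or without him-8 sperm 2. None of 5 actins was called with edgeR or DESeq2 or had an unadjusted p under 0.05. Of 17 SNARE proteins, which drive membrane fusion, snb-7 and snap-29 fell, or 11.8%, against 7.05% called lower over all genes tested. snb-7, a synaptobrevin, had 5.70, 1.77 and 2.26 CPM in mes-3 sperm, against 32.2, 44.4 and 23.7 CPM in him-8 sperm (log2 fold change -3.33 ± 0.66 SE, adjusted p = 0.00674). It had the largest drop among the called genes of these families and kept its call with any 1 library left out, whereas snap-29 lost it with total counts and in 5 of those 6 fits. Of 14 cell cycle kinases and cyclins, air-2, the Aurora B kinase of meiotic chromosomes, fell by 0.84 and plk-2, a Polo kinase, by 0.71. Their share was 14.3%, against 7.05% over all genes tested. Neither air-2 nor plk-2 passed with total counts, without mes-3 sperm 2 or 3 or without him-8 sperm 2.

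Among the other genes with the largest drops, Y49E10.4 had 17.1, 35.4 and 36.1 CPM in mes-3 sperm and 121, 118 and 130 CPM in him-8 sperm (log2 fold change -2.06, adjusted p = 0.00348). The him-8 values lay close together and far above the mes-3 ones. ZC581.2 fell by 1.53 and ZC434.8 by 1.08, and the pseudogene C04G2.3 by 1.28. These 4 kept their call with any 1 library left out. F59B2.15 fell by 2.75 and B0207.5 by 1.83, both losing their call without mes-3 sperm 2 or mes-3 sperm 3, the first also without him-8 sperm 2 and the second without him-8 sperm 3. clec-209, a C-type lectin gene, is listed under 2 near-identical identifiers. F56A4.2, one of them, had 9.49, 13 and 11.7 CPM in mes-3 sperm, against 82.8, 14.6 and 85.7 CPM in him-8 sperm, so that him-8 sperm 2 lay almost at the mes-3 level, and the call was lost without him-8 sperm 3 or any 1 mes-3 library.

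On the higher side, the cytosolic ribosomal proteins, the protein part of the translating ribosome, moved together. Of 77 tested, 59 rose and none fell, with a median log2 fold change of 0.82 (quartiles 0.69 and 0.93), against 3.22% called higher over all genes. Together they had 31717, 35262 and 38347 CPM in mes-3 sperm and 20421, 19790 and 20126 CPM in him-8 sperm. The him-8 sums differed little from each other and the mes-3 sums were all higher, with a ratio of the means of 1.75. For 73 of the 77 the groups did not overlap, against 30.7% of all genes. rps-4 had 761, 1054 and 981 CPM in mes-3 sperm and 360, 365 and 446 CPM in him-8 sperm (log2 fold change 1.25 ± 0.18 SE, adjusted p = 0.00311). rpl-26 had 305, 325 and 327 CPM in mes-3 sperm, against 96.6, 156 and 163 CPM in him-8 sperm, and rpl-31 and rpl-27 rose by 1.14 and 1.12 on the log2 scale. rla-0, the acidic stalk protein, had 1611, 1886 and 1711 CPM in mes-3 sperm and 1287, 1012 and 1051 CPM in him-8 sperm (log2 fold change 0.64). rpl-29 at 1.58 and rpl-24.2 at 1.2 were not called, and rpl-42 at -0.94 and rpl-41.1 at -0.12 were the 2 members below 0. The number that rose was 24 without mes-3 sperm 3, 32 without mes-3 sperm 2, 32 without him-8 sperm 2 and 43 to 55 without any other library. It was 67 with total counts and 66 after a correction for transcript length, and the median stayed between 0.70 and 1.1.

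The rest of the translation machinery gave few calls. Of 34 initiation and elongation factors 4 rose (11.8%, against 3.22% over all genes tested), with a median of -0.01 whose sign turned under 3 alternatives. The 4 were eif-6, which acts in the making of the large ribosomal subunit, and the elongation factors eef-1A.1, eef-1G and eef-2. eef-1A.1 had 5474, 6973 and 6573 CPM in mes-3 sperm and 3072, 3368 and 3801 CPM in him-8 sperm (log2 fold change 0.89 ± 0.16 SE, adjusted p = 0.00464). eif-6 had 54.6, 82.6 and 60.2 CPM in mes-3 sperm, against 25.9, 14.6 and 21.1 CPM in him-8 sperm (log2 fold change 1.67). eef-1G at 0.57 and eef-2 at 0.52 were smaller. The number was 1 without mes-3 sperm 2 or without him-8 sperm 2, 2 without mes-3 sperm 1 or mes-3 sperm 3 and 6 with total counts, and eef-1A.1 passed in all of these.

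The first lists were chosen with earlier results of these data known. Families beyond them were chosen after the names of the called genes were known, and their counts describe that choice. Some of these added families moved little as a whole. Of 25 nucleoporins 4 rose and none fell, with a median of -0.02, and of 31 aminoacyl-tRNA synthetases 5 rose and none fell, with a median of 0.21. The shares that rose were 16% and 16.1%, against 3.22% over all genes tested. Of 17 acyl-CoA synthetases 1 rose and 3 fell, with a median of -0.11. Of 8 chaperonin subunits 2 rose and none fell, with a median of 0.61. Of 26 nucleolar and ribosome biogenesis proteins, 10 rose and none fell, with a median of 0.87. nucl-1, nucleolin, had 357, 409 and 337 CPM in mes-3 sperm and 171, 165 and 193 CPM in him-8 sperm (log2 fold change 1.05, adjusted p = 0.00422). nol-58, a core protein of box C/D snoRNPs, averaged 239 ± 55.1 CPM in mes-3 sperm and 92.4 ± 15.3 CPM in him-8 sperm (SD, n = 3 each, log2 fold change 1.36). fib-1, fibrillarin, rose by 1.00 and rpoa-1, the large subunit of RNA polymerase I, by 0.92. The number that rose was 3 without mes-3 sperm 2 and 5 without him-8 sperm 2. snoRNAs themselves summed to 543, 813 and 660 CPM in mes-3 sperm and 395, 219 and 275 CPM in him-8 sperm without overlap, but 1 of 13 tested was called. Of 6 subunits of the minichromosome maintenance helicase, which unwinds DNA for replication, mcm-4, mcm-6 and mcm-7 rose by 1.57, 1.38 and 1.15. None of them passed without mes-3 sperm 2 or without him-8 sperm 2, and 1 passed without mes-3 sperm 3. Of 6 fatty acid desaturases, fat-6, fat-3, fat-4 and fat-1 rose, by 1.53, 1.09, 0.93 and 0.70. fat-6, which makes oleic acid, averaged 133 ± 15.8 CPM in mes-3 sperm and 45.6 ± 18.7 CPM in him-8 sperm (SD, n = 3 each). The number of desaturases was 1 without mes-3 sperm 1, mes-3 sperm 2 or him-8 sperm 2, and 2 without mes-3 sperm 3.

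**Figure D3:**
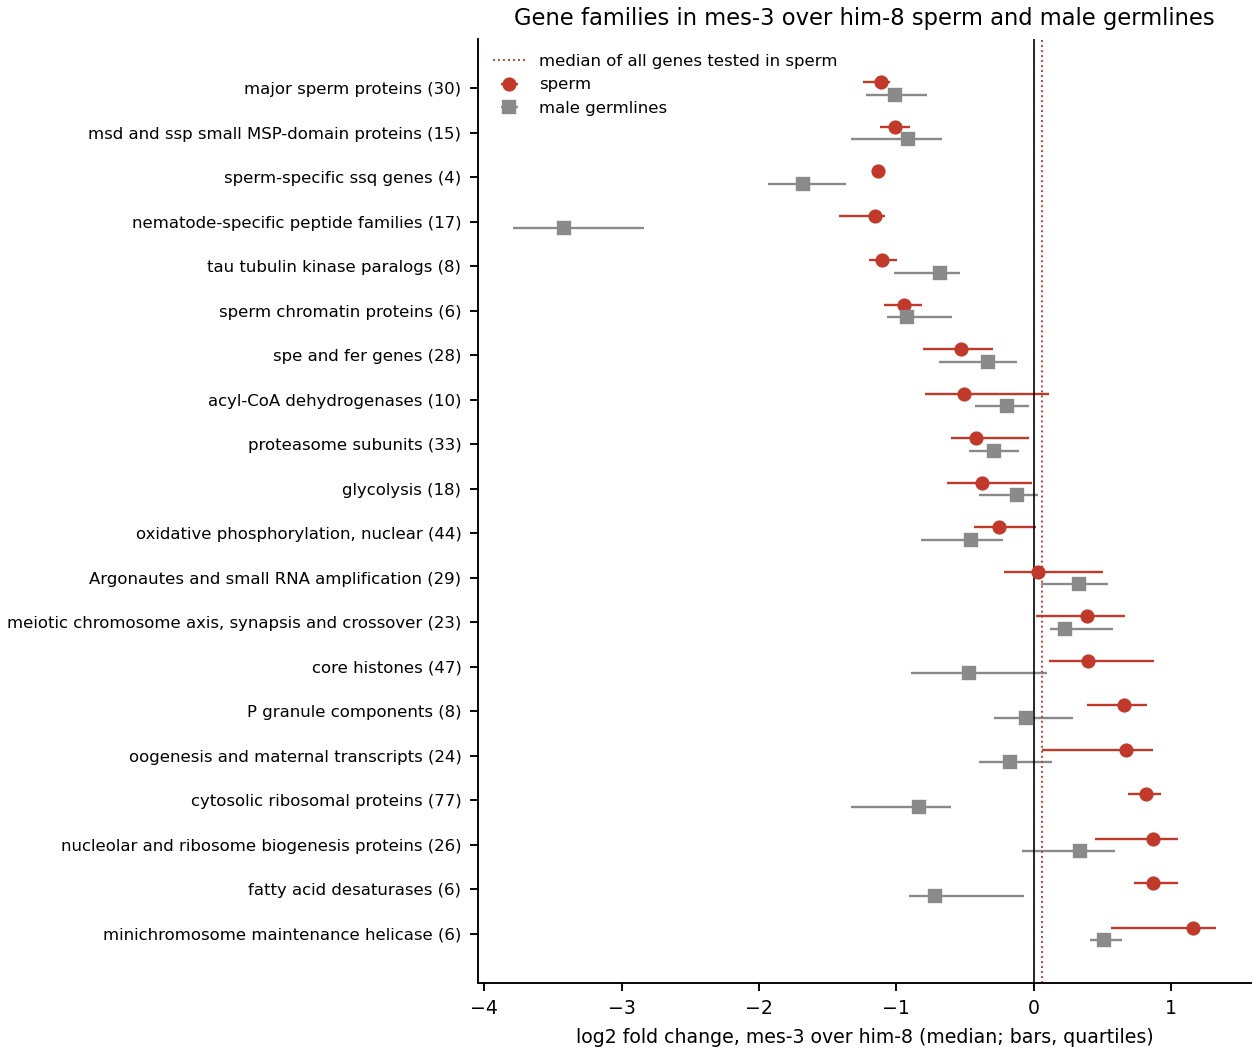
Median log2 fold change (points) and quartiles (bars) of 20 gene families, in mes-3 over him-8 sperm (circles) and in mes-3 over him-8 male germlines (squares), with the number tested in sperm. Families of spermatogenesis lie below 0 in sperm, and the ribosomal proteins lie at 0.82 in sperm and at -0.83 in male germlines.

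Core histone genes lay mostly above 0. Of 47 tested (of 66 genes), 39 had log2 fold changes above 0 and 8 below, with a median of 0.40. By call, 6 rose (12.8%) and 1 fell (2.13%), against 3.22% and 7.05% over all genes tested. The abundant his-48, an H2B gene, was not called, with 2352, 2512 and 2274 CPM in mes-3 sperm and 2294, 2540 and 2164 CPM in him-8 sperm. The genes that rose most were near absent from him-8 sperm. his-5, an H4 gene, had 66, 42.5 and 50.4 CPM in mes-3 sperm, against 0.575, 6.08 and 1.32 CPM in him-8 sperm (log2 fold change 4.37, adjusted p = 0.00343). his-6 had 61.7, 31.3 and 33.8 CPM in mes-3 sperm, against 6.90, 1.83 and 0.989 CPM in him-8 sperm, and his-18 rose by 3.89. his-4 had 83, 51 and 30 counts in mes-3 sperm and 0, 0 and 2 counts in him-8 sperm, a ratio of 81.4 after scaling with a 95% counting interval of 22.2 to 678. his-37, another H4 gene, went the other way, with 11.9, 3.54 and 8.27 CPM in mes-3 sperm and 36.2, 51.1 and 21.8 CPM in him-8 sperm (log2 fold change -2.18), and its call was lost with total counts and without mes-3 sperm 2, mes-3 sperm 3 or him-8 sperm 2. The number of genes that rose was 15 without him-8 sperm 1, 4 without any 1 mes-3 library and 11 with total counts. Histone genes of a class differ by few bases, so reads may be split among them or left uncounted. None of 11 histone variants and linker histones tested was called with edgeR, 4 had an unadjusted p under 0.05, 3 of them higher, and DESeq2 called 1 higher.

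The gene with the smallest p of all, tsn-1, encodes a Tudor staphylococcal nuclease. It had 715, 770 and 608 CPM in mes-3 sperm and 82.2, 30.4 and 103 CPM in him-8 sperm, with no overlap (log2 fold change 3.26 ± 0.33 SE, adjusted p = 0.00121). The formin gene daam-1, of actin assembly, had 24.7, 41.3 and 22.6 CPM in mes-3 sperm and 0.575, 0.608 and 1.32 CPM in him-8 sperm (log2 fold change 4.96). citk-1, a citron kinase-like gene, had 90.2, 120 and 111 CPM in mes-3 sperm, against 7.47, 13.4 and 27 CPM in him-8 sperm (log2 fold change 2.70). These 3 genes kept their call with any 1 library left out. oac-36, an acyltransferase-like gene, had 77, 50 and 25 counts in mes-3 sperm and 0, 0 and 3 counts in him-8 sperm, a ratio of 50.3 with a 95% counting interval of 16.9 to 247. cls-3, T04D3.5 and F15D4.5 rose by 3.96, 3.75 and 4.43, but cls-3 lost the call without mes-3 sperm 2, T04D3.5 without mes-3 sperm 3 and F15D4.5 without any 1 mes-3 library. ftn-1, a ferritin gene of the intestine, had 55.5, 15.9 and 7.90 CPM in mes-3 sperm and 0, 1.22 and 1.98 CPM in him-8 sperm (log2 fold change 4.45, adjusted p = 0.0143), and it lost the call without mes-3 sperm 1 or without him-8 sperm 2. A further 6 called genes had no count in any him-8 sperm library, which makes them at least 14.9-fold to 29.8-fold higher against a floor of 3 counts over the group. These intervals and bounds cover counting error only.

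Genes of early germ cells and of oogenesis tended to lie above 0, with few calls. Of 24 oogenesis and maternal transcripts, 2 rose (8.33%, against 3.22% over all genes tested) and none fell, with a median of 0.67. cbd-1, an eggshell protein, had 520, 373 and 398 CPM in mes-3 sperm, against 205, 167 and 284 CPM in him-8 sperm (log2 fold change 0.97, adjusted p = 0.0139). pos-1, a maternal RNA-binding protein, had 39.4, 34.8 and 19.9 CPM in mes-3 sperm and 6.90, 11 and 6.92 CPM in him-8 sperm (log2 fold change 1.92, adjusted p = 0.0413). The pos-1 call was lost whichever library was left out, and that of cbd-1 without mes-3 sperm 1 or him-8 sperm 2. mex-5, another maternal RNA-binding protein, was at -0.13. Of 8 stem cell regulators nos-3 rose by 0.84, glp-1, the Notch receptor, was at 1.16 without a call (adjusted p = 0.058), and nos-3 lost the call without any 1 library other than mes-3 sperm 3. Of 8 P granule components and 23 meiotic chromosome proteins none was called with edgeR, at medians of 0.66 and 0.39. In each of these lists 3 members had an unadjusted p under 0.05, all higher, and DESeq2 called 0 and 1. Among 12 regulators of sperm fate, fog-1, which specifies sperm, rose by 1.02 and cpb-2, a CPEB-type RNA-binding protein, fell by 0.68. Each lost its call in at least 4 of the 6 fits with a library left out, namely without mes-3 sperm 1, 2 or 3 or him-8 sperm 2, fog-1 also without him-8 sperm 1 and cpb-2 also with total counts.

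Gene families that Polycomb repression commonly holds silent had few members with counts enough to be tested. Of 6 HOX genes 2 could be tested and none was called with edgeR or DESeq2 or had an unadjusted p under 0.05. php-3 had 7.12, 14.7 and 6.77 CPM in mes-3 sperm and 0, 4.87 and 0.33 CPM in him-8 sperm, which did not overlap, but at an adjusted p of 0.272. Of 8 homeobox genes of the ceh series, ceh-92 rose by 1.80 and ceh-48, a ONECUT factor, fell by 1.12. Of 46 nuclear hormone receptors tested (of 269), 3 rose and none fell. The share that rose was 6.52%, against 3.22% over all genes tested. All 269 summed to 1413, 1873 and 1342 CPM in mes-3 sperm and 1282, 1109 and 1124 CPM in him-8 sperm. These sums did not overlap and were not tested. nhr-47 had 25.2, 51.3 and 23.3 CPM in mes-3 sperm and 2.30, 4.26 and 4.95 CPM in him-8 sperm (log2 fold change 3.07, adjusted p = 0.00853). nhr-104 and nhr-88 rose by 3.48 and 1.51. Without mes-3 sperm 2 none of these 3 was called, and 1 was without mes-3 sperm 1, mes-3 sperm 3 or him-8 sperm 2. ceh-92 lost its call in 5 of the 6 fits, without any library other than him-8 sperm 1, and ceh-48 lost it with total counts, without mes-3 sperm 1 or 2 and without him-8 sperm 2. Of 1309 serpentine receptors 4 could be tested, none was called with edgeR or DESeq2 or had an unadjusted p under 0.05, and 1116 had no count in any of the libraries. Together the 1309 had 147, 247 and 190 CPM in mes-3 sperm, against 106, 56 and 84.1 CPM in him-8 sperm. These sums did not overlap, with a ratio of the means of 2.37, and they were not tested. For each of the 4 tested members the groups overlapped. Reads outside genes were also higher in mes-3 sperm, at 5.82% to 9.19% against 3.55% to 5.27% in him-8 sperm. Their part in these sums was not tested.

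The enzymes of H3K27 and H3K36 methylation themselves gave 1 call. mes-2, the H3K27 methyltransferase, had 100, 85.5 and 92.9 CPM in mes-3 sperm and 77, 83.3 and 56.4 CPM in him-8 sperm, mes-4, the H3K36 methyltransferase, had 112, 78.4 and 74.5 CPM against 72.4, 82.7 and 61.3 CPM, and mes-6 was at 0.48. None of these 3 was called. Of the 7 genes tested in this list jmjd-1.2, a histone demethylase, fell, with 259, 218 and 197 CPM in mes-3 sperm and 382, 526 and 344 CPM in him-8 sperm (log2 fold change -0.89, adjusted p = 0.0143). Its call was lost with total counts, without mes-3 sperm 2 or 3 and without him-8 sperm 2.

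The most abundant RNAs by length were noncoding. srpr-2.2 and srpr-2.1 had mean levels of 100366 and 96158 RPKM in mes-3 sperm and 116067 and 115219 RPKM in him-8 sperm. In CPM, srpr-2.2 had 29975, 31686 and 28368 in mes-3 sperm and 40995, 35479 and 27638 in him-8 sperm, which overlapped (log2 fold change -0.21, adjusted p = 0.505). srpr-1.2 at -0.37 and rpr-1, the RNA of RNase P, at 0.08 were not called either. All ncRNAs summed to 71530 to 76399 CPM in mes-3 sperm and 69234 to 99766 CPM in him-8 sperm. By kind, the 271 higher calls were 259 protein-coding genes, 7 pseudogenes, 3 ncRNAs, 1 snoRNA and 1 identifier with no match in the annotation, and the 594 lower calls were 581 protein-coding genes and 13 pseudogenes.

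The X chromosome, which is largely silent in the male germline, gave few calls. Of 503 X-linked genes tested 7 rose (1.39%) and 1 fell (0.199%), against 3.22% and 7.05% over all genes. Their median log2 fold change was 0.17, against 0.06 over all genes, with 300 above 0 and 203 below. These 503 genes, of 8424 tested, took only 1.02% to 1.90% of the counts of tested genes. At such low counts, fewer calls do not show a smaller change. Chromosome IV, which holds many msp, ttbk and ssp genes, had the highest share of lower calls, 10.9% of 1591 genes. X-linked genes took 1.86%, 2.1% and 1.82% of gene counts in mes-3 sperm and 1.72%, 1.14% and 1.41% in him-8 sperm. All mes-3 libraries were above all him-8 libraries, at 1.93% ± 0.15 in mes-3 sperm and 1.42% ± 0.29 in him-8 sperm (SD, n = 3 each), a difference of 0.504 percentage points. The two-sided exact permutation test gave p = 0.1, the smallest that 3 against 3 libraries allow. The difference was 0.494 points among protein-coding genes, 0.413 points in summed RPKM and 0.360 to 0.654 points with any 1 library left out. Called genes were often neighbours. The next tested gene along the chromosome was also called lower for 18.2% of the lower calls, and also higher for 7.06% of the higher calls, against 7.05% and 3.22% of all genes. The longest such runs held 6 lower genes each, on chromosome IV, and contained ttbk-2.1 with msp-19, and msp-57 and msp-53 with ttbk-2.2.

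**Figure D4:**
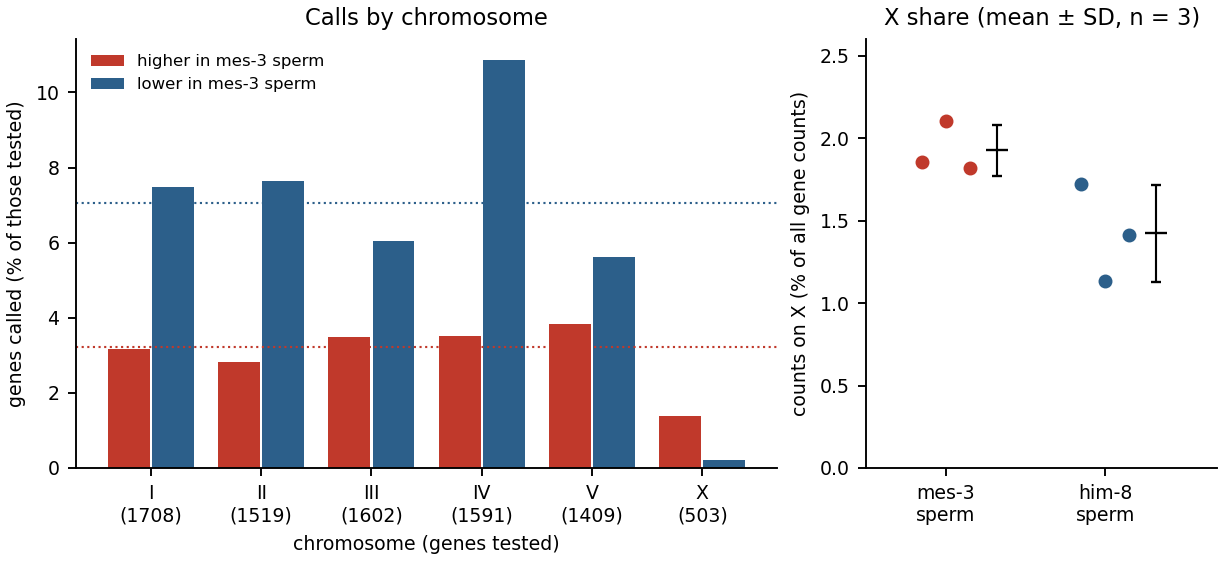
Left, genes that were called in mes-3 sperm in each direction as a percentage of those tested on each chromosome, with dotted lines at 3.22% and 7.05% for all genes. Right, share of gene counts on X in each mes-3 and him-8 sperm library with mean ± SD, where the mes-3 libraries lie at 1.82% to 2.1% and the him-8 libraries at 1.14% to 1.72%.

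The male germlines of the same genotypes, 3 mes-3 and 4 him-8 libraries, allow the sperm effect to be set beside that in the germline. By the study's methods these were distal gonad arms cut at the bend, at late pachytene. Later stages of spermatogenesis are therefore not covered, and the comparison is between unlike stages. No library is shared, but all mes-3 germline libraries carry another run tag than their him-8 controls, so the 2 factors cannot be told apart in the germline. There, 1092 genes (12.2%) were higher and 1412 (15.8%) lower of 8930 tested. Of the 271 genes higher in sperm, 98 were also higher in the germline, 61 were lower, 93 had no call and 19 were not tested. The 98 are 36.2% of the sperm list and 8.97% of the germline list. Of the 594 lower in sperm, 313 were lower in the germline, 2 were higher, 276 had no call and 3 were not tested, the 313 being 52.7% of the sperm list and 22.2% of the germline list. tsn-1 had log2 fold changes of 3.26 in sperm and 3.38 in the germline, daam-1 of 4.96 and 4.00, and his-5 of 4.37 and 3.29. The MSPs had medians of -1.11 in sperm and -1.01 in the germline, where 21 of 30 fell. The nsp families had medians of -1.15 in sperm and -3.42 in the germline, where all 17 fell. The test of the difference between sperm and germline called 4 of 19 nsp genes positive, with a median of 1.79, but after a correction for transcript length 5 negative and none positive, with a median of -0.75.

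**Figure D5:**
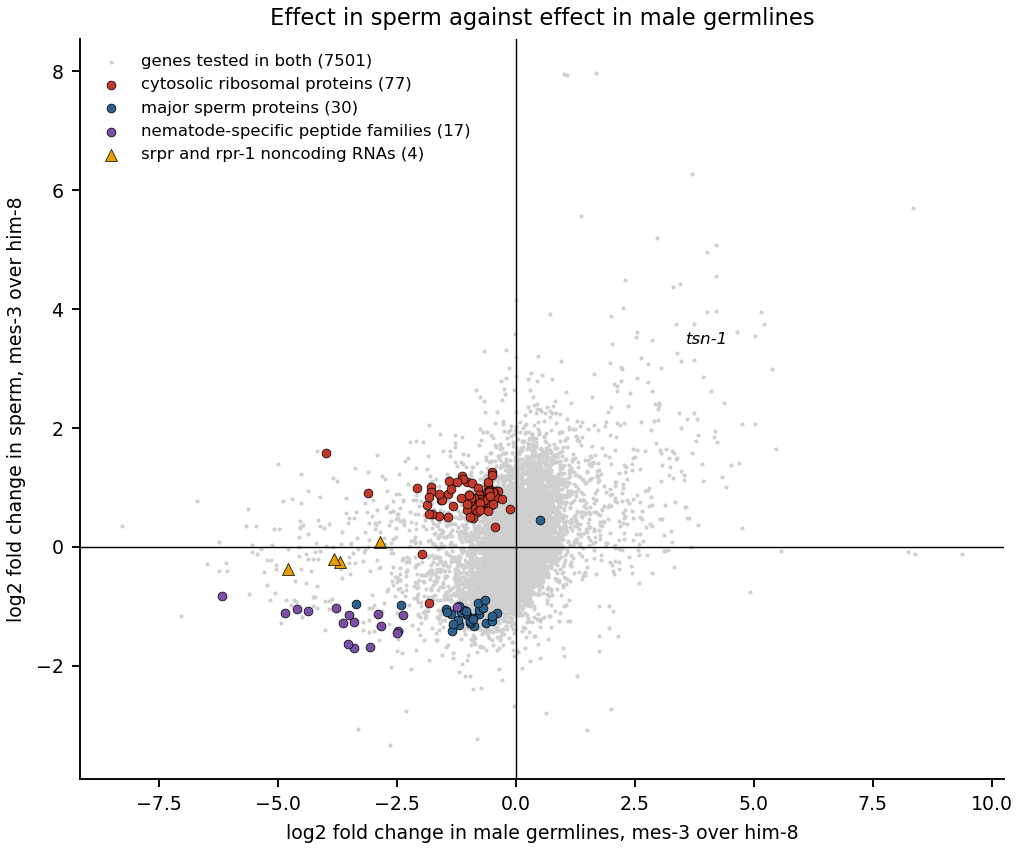
Log2 fold change of mes-3 over him-8 in sperm (vertical axis) against that in male germlines (horizontal axis) for 7501 genes tested in both. Ribosomal proteins lie above 0 in sperm, apart from rpl-42 and rpl-41.1, and below 0 in the germline, MSPs lie below 0 in both apart from msp-152, and the srpr and rpr-1 RNAs lie within -0.37 and 0.08 in sperm and at -2.86 or lower in the germline.

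The difference of the effects was tested in 1 fit over the 13 libraries, as the sperm effect minus the germline effect, for 10129 genes. It was positive for 218 (2.15%) and negative for 61 (0.602%). The positive ones numbered 135 and 144 without mes-3 germline 1 and 3 and 399 with controls of run 1 only. The negative ones numbered 13, 21 and 15 without mes-3 germline 1, 2 and 3, 24, 155 and 37 without him-8 germline 1, 2 and 3, 35 and 30 without mes-3 sperm 2 and 3, 32 without him-8 sperm 2 and 99 with controls of run 1 only. Ribosomal proteins made up 71 of the 218, out of 77 tested. Their median log2 fold change was 0.82 in sperm and -0.83 in the germline, where 64 fell and none rose. rpl-26, for example, was at 1.2 in sperm and at -1.14 in the germline, a difference of 2.34 ± 0.29 SE (adjusted p = 0.000884). The class held 66 to 72 members with any 1 library left out, 73 with him-8 germline controls of either single run, and 40 after a correction for transcript length. The other positive calls included 16 of 41 snoRNAs, 11 of 19 snRNAs and 10 of 35 ncRNAs, among them srpr-1.2, at -0.37 in sperm and -4.80 in the germline. The effect followed transcript length more in the germline than in sperm. Over 8 bins of equal size, from the shortest to the longest transcripts, the median log2 fold change in sperm lay at -0.19 in the first bin and 0.18 in the last, and that in the germline at -0.80 and 0.47. After the length correction 118 differences were positive and 152 negative, and 26 of 31 MSPs were then called negative, against none of them without the correction.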

How the data were processed

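Total RNA of sperm was depleted of ribosomal RNA and sequenced as single-end 50-base reads, which the authors aligned with TopHat2 to WS220 and counted with HTSeq. The deposited values used here are raw read counts per gene of each library. Their strand setting is not given in the sources used here, so antisense, overlapping and near-identical genes are uncertain. The deposited tables of DESeq and DESeq2 results (fold changes and p-values) and of RPKM values were not used. HTSeq's 5 summary lines were left out of library sizes, reads outside genes being 3.55% to 9.19% of counted reads in sperm.

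Genes passing filterByExpr were tested with edgeR 4.0.16 (R 4.3.3, limma 3.58.1), by its quasi-likelihood F test with TMM factors and Benjamini-Hochberg adjusted p under 0.05. Each SE was derived from that test, as the absolute log2 fold change over the square root of F, and is approximate. Differences between sperm and male germlines were an interaction term over 13 libraries. Names, lengths and chromosomes came from Ensembl 115 (WBcel235), in which 44933 of 45461 identifiers had 1 match. RPKM used the longest annotated transcript and is the only scale on which genes are compared.

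Genes named were the 10 protein-coding genes per direction with the largest fold among calls without overlap and with at least 20 CPM, the 5 with the smallest p, the 10 highest by RPKM, and list members (all of lists of up to 12, otherwise up to 4 calls per direction and the 3 highest). Others (fat-3, fat-4, ssq, nol-58 and further names of the added families, X-linked and low-count genes) were chosen after their values were seen. Members and lists were chosen with earlier results of these data known. Alternatives were DESeq2 1.42.0, other normalizations, filters, a transcript length correction (lowess, span 0.3), a replicate block, all libraries, and each library left out. The scripts were tested on simulated data.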

Additional observations from a re-analysis of the deposited data

Results flagged for a closer look

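The effect of mes-3 differed between sperm and male germlines for 218 genes positively and 61 negatively by the interaction term of edgeR (adjusted p under 0.05), and the 20 given here are those among the named genes. All mes-3 germline libraries come from another run than their controls, and these factors cannot be told apart in the germline values. The germline samples were cut at late pachytene and lack later stages. Values are the log2 effect in sperm minus that in the germline.

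Among the abundant small noncoding RNAs, the difference was 4.44 for srpr-1.2, 3.64 for srpr-2.2, 3.47 for srpr-2.1 and 2.96 for rpr-1, all 4 being lower in the germline (log2 fold changes of -4.80, -3.83, -3.71 and -2.86) and without a call in sperm.

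Among ribosomal proteins, it was 2.53 for rpl-27, 2.34 for rpl-26, 2.26 for rpl-31, 1.76 for rps-4, 1.57 for rps-25 and 1.43 for rpl-10, each above 0 in sperm and below 0 in the germline. The translation and nucleolar genes gave 1.68 for eif-6, 0.94 for eef-1A.1, 1.16 for fib-1 and 1.14 for nucl-1, with germline effects of -0.01, -0.04, -0.15 and -0.09.

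The histone gene his-61 differed by 1.11 and the P granule helicase gene glh-1 by 1.2. spe-11, lower in both, differed by 1.75, being lower by more in the germline. The difference was negative for ceh-48 at -1.57, spe-26 at -0.90 and the proteasome gene rpn-1 at -0.81, for which the effect in sperm was the lower one.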

How the results depend on the processing

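Counts of sperm genes higher and lower, 271 and 594 as reported, were 1152 and 1342 with all 25 libraries in the fit, where 13847 genes were tested and the median log2 fold change moved by -0.12, 463 and 270 with total counts, 167 and 306 when calls also needed a log2 change of 1 or more in size, and 80 to 304 and 200 to 563 with any 1 library left out. Replicate numbers do not pair the samples: the correlations of same-numbered libraries were -0.049, -0.032 and 0.037, and a replicate block gave 100 and 275. Differences between sperm and germline, 218 positive and 61 negative, were 587 and 255 with DESeq2, 399 and 99 with him-8 controls of run 1 only, 118 and 152 after the transcript length correction, and 135 to 281 and 13 to 155 with any 1 library left out. Negative differences were 33 with the block and 28 with total counts. The causes were not tested. The difference in X-linked share was 0.360 to 0.654 points. Of list medians, that of oxidative phosphorylation turned from -0.25 to 0.02 and that of tubulins from -0.17 to 0.10 with total counts. The median difference of the nsp families turned from 1.79 to -0.75 after the length correction. No called named gene changed direction. Of 264 named genes tested, 157 were called, 57 of them under every alternative.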
